A study of Mus musculus with 16 samples.

Results

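The non-fibrillar interstitial collagens followed here are the products of 9 genes, Col6a1, Col6a2, Col6a3, Col8a1, Col12a1, Col14a1, Col15a1, Col16a1 and Col18a1. They were taken by gene symbol from a table of 17737 mouse genes, and all 9 symbols were found there. The table holds bulk RNA-seq of heart ventricles from male C57BL/6 mice that ate 1 of 4 diets for 6 months from 6 weeks of age. Each of the 16 libraries came from a single animal, with 4 animals per diet, and was a strand-specific poly-A library read as 75-base single reads. In the mNIA diet, the NIA formula was changed so that its sucrose and fat match UW. UW and NIA are formulas made for primates, and chow is a standard rodent diet. All groups share strain, sex, starting age and duration, and no gene was altered in any of them. Library codes do not spell the diets, so which of the 3 formula groups is which rests on the sample titles, whereas the mean of the 3 formulas set against chow does not depend on it.

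Collagens I and III build the load-bearing fibrils of the heart's interstitium and are made mainly by fibroblasts. Around those fibrils lie collagens of other shapes. Collagen VI is assembled from the α1, α2 and α3 chains encoded by Col6a1, Col6a2 and Col6a3, which form beaded microfibrils that tie cells to the surrounding matrix. Collagens XII, XIV and XVI are fibril-associated collagens with interrupted triple helices, which decorate or connect fibrils without forming fibrils of their own. Collagen VIII forms short-chain networks and is known from vessel walls. Collagens XV and XVIII, the multiplexins, sit at basement membranes of muscle and vessels, and the C-terminal end of collagen XVIII is released as endostatin. RNA from whole ventricle cannot tell fewer cells of a type from less RNA per cell.

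Promoter windows from RefSeq (build GRCm38.p6, 250 bases before to 50 after each annotated start) were matched for 7 of the 9 genes by symbol. Those of Col12a1 and Col14a1 are not shown. The 6 windows printed belong to the 3 pairs of genes whose levels had the highest correlation between hearts with NIA replicate 4 and UW replicate 1 left out, as described further on, and each is given 5′ to 3′ on its gene's strand. Col6a2 and Col18a1 each have a second annotated start, and the windows shown are those at the gene start of the deposited table. Capitals mark matches on either strand to a GC box, spelled GGGCGG, or to the letters of the CCAAT box. Searches for the AP-1 site, spelled TGANTCA, and for the core promoter element TATAAA, called the TATA box, were also made and had no match in these windows. No searched motif contains another.
Col6a2 (chr10:76623581-76623880, minus strand): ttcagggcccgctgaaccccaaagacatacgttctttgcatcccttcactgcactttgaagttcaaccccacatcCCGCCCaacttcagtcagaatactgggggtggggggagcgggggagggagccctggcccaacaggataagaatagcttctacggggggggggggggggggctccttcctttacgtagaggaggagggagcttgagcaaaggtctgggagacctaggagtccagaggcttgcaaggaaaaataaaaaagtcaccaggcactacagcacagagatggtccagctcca
Col8a1 (chr16:57754688-57754987, minus strand): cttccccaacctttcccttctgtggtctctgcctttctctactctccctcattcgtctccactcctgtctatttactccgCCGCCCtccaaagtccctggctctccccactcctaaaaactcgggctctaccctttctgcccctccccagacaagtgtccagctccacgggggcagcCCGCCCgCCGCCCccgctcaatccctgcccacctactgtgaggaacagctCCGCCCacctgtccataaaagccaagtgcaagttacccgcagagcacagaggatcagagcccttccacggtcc
Col16a1 (chr4:130047590-130047889, plus strand): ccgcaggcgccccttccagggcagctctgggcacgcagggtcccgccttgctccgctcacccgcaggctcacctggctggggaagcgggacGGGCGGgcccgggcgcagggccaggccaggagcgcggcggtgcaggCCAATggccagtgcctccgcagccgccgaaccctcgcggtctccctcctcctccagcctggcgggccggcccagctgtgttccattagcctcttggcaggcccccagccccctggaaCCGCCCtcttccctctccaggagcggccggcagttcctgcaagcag
Col18a1 (chr10:77166481-77166780, minus strand): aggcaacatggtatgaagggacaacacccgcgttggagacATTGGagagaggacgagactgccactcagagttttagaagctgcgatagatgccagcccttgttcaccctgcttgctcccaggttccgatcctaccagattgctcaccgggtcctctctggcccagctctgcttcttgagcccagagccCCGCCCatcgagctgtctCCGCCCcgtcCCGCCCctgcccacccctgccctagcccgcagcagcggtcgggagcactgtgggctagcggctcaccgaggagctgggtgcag
Col6a3 (chr1:90843922-90844221, minus strand): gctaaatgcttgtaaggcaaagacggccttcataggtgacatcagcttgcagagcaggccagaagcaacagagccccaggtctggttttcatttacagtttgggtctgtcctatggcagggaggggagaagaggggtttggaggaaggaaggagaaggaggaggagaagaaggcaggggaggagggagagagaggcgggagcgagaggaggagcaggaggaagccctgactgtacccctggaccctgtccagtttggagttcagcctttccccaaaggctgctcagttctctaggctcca
Col15a1 (chr4:47207762-47208061, plus strand): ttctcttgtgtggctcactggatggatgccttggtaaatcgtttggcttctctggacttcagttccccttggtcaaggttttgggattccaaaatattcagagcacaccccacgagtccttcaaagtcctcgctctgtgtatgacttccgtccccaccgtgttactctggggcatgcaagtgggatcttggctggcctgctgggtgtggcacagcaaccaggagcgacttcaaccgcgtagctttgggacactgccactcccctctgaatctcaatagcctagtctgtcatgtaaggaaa

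GC boxes were found 1 time in the Col6a2 window shown and 3 times in that of its other start, 4 times in that of Col8a1, 2 times in that of Col16a1 and 3 times in that of Col18a1, and CCAAT boxes 1 time each in those of Col16a1 and Col18a1. The windows of Col6a3 and Col15a1 held none of the searched motifs, nor did the window at the other start of Col18a1. Over all 32851 mouse promoter windows of that length, 35.7% held a GC box, 13.6% a TATA box, 37.4% a CCAAT box and 7.81% an AP-1 site. The Col6a1 window held 1 AP-1 match and no GC box, unlike that of its neighbour on chromosome 10, Col6a2. A match is a string of letters in the window and says nothing of binding.

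On mm10, Col6a1 lies on chromosome 10 at 76708792 to 76726044, with Col6a2 on the same strand of that chromosome at 76595756 to 76623630. The larger Col6a3 is on chromosome 1 at 90766860 to 90843971. Col8a1 occupies chromosome 16 from 57624256 to 57754737. Col12a1 is on chromosome 9 at 79598987 to 79718722 and Col14a1 on chromosome 15 at 55307750 to 55520803. Chromosome 4 holds both Col15a1 at 47208012 to 47313165 and Col16a1 at 130047840 to 130099277. Col18a1 lies on chromosome 10 at 77052179 to 77166530. Their longest coding transcripts have between 4 exons, in Col8a1, and 70 exons, in Col16a1. Exons of 8 of the 9 genes overlap no other gene of GENCODE vM21, and 14 bases of Col15a1 are shared with the antisense gene Gm12426.

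Library sums ran from 2278250 counts in NIA replicate 4 to 63005490 in NIA replicate 2, and the other 14 lay between 3143385 and 6583532. All 12 cardiomyocyte markers passed the filter on low counts, with Myh6, the main adult mouse heart myosin, at a median of 27061 CPM (counts scaled to a fixed library size), and so did all 14 fibroblast and all 14 endothelial markers. Of 7 adipocyte markers 3 were listed, and they summed to at most 0.670 CPM in any library. NIA replicate 4 stood apart: its long transcripts were low relative to the other libraries, and its limma quality weight was 0.16, the lowest of 16. There, each gene's log2 CPM minus its median over 16 libraries had a Spearman rho of −0.57 with transcript length, over 10950 genes. In UW replicate 4 this rho was 0.51, so long transcripts were relatively high. The weights of mNIA replicate 2, NIA replicate 1 and chow replicate 3 were also low, at 0.36, 0.30 and 0.23. Levels are CPM after trimmed-mean (TMM) scaling, as mean ± SD with n = 4 hearts per diet, and fold changes are log2 values ± SE. A gene is called changed at an adjusted p under 0.05 in edgeR's quasi-likelihood test with Benjamini-Hochberg adjustment over all 13381 genes tested.

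No member was called in any of the 8 diet comparisons. Of the 9 genes 8 passed the filter on low counts, and Col12a1 did not. Among all tested genes, 1 of 13381, or 0.00747%, was called in mNIA against chow, and 0.0% in each of the other 7 comparisons. That gene was Phtf1os, with a log2 fold change of 4.55 ± 0.72 (SE) and an adjusted p of 0.0451. In the mean of the 3 formulas minus chow, the adjusted p of the 8 members lay between 0.938 and 0.946. The same 8 members also had no call from DESeq2, in the comparisons where it gave them an adjusted p, or from limma with quality weights.

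**Figure D1:**
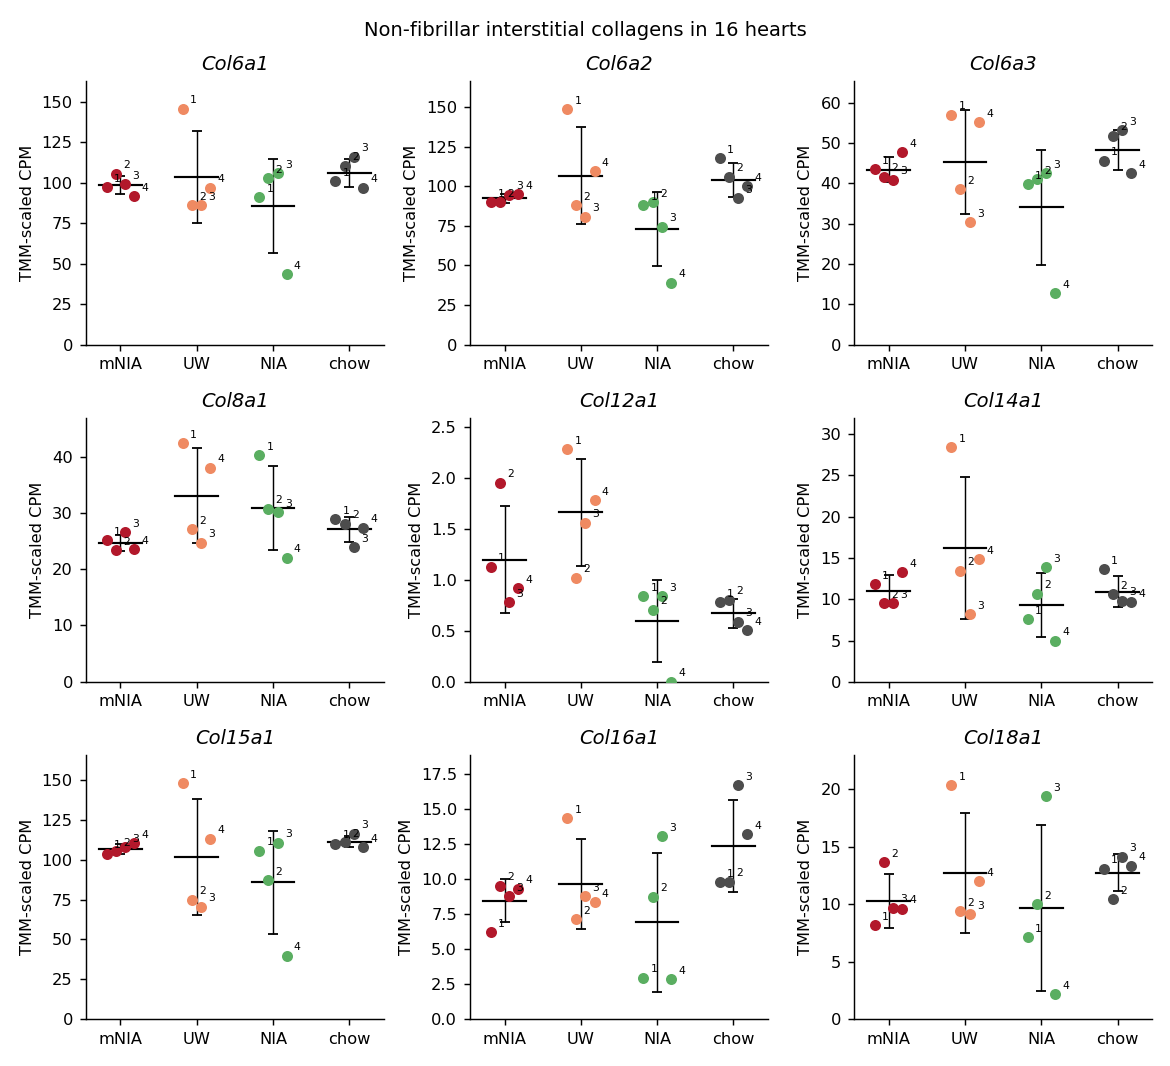
TMM-scaled CPM of the 9 collagen genes in each of 16 hearts, by diet (mNIA, UW, NIA, chow). Points are single hearts labelled with their replicate number, and bars show the mean ± SD of 4 hearts; NIA replicate 4 is lowest for all 9 genes and UW replicate 1 is highest for 8 of them.

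The collagen VI α1 chain was among the best-measured members. Col6a1 had 97.4, 106, 99.1 and 91.9 CPM in the mNIA hearts, 146, 86.0, 86.3 and 96.9 CPM in the UW hearts, 91.0, 103, 106 and 43.4 CPM in the NIA hearts and 101, 110.5, 116 and 97.0 CPM in the chow hearts. All 4 diets overlapped, and the extremes were 1 UW heart above and 1 NIA heart below. Its means were 98.5 ± 5.6 CPM with mNIA, 104 ± 28 CPM with UW, 85.7 ± 29 CPM with NIA and 106 ± 8.7 CPM with chow. The log2 fold change of the mean of the 3 formulas minus chow was −0.14 ± 0.20 (SE; 95% interval −0.55 to 0.27; edgeR adjusted p = 0.938), and −0.07 without NIA replicate 4.

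Col6a2, the α2 chain, had 90.0, 89.9, 94.6 and 94.9 CPM in the mNIA hearts, 149, 88.0, 80.8 and 109.5 CPM in the UW hearts, 88.1, 90.0, 74.5 and 39.1 CPM in the NIA hearts and 118, 106, 92.5 and 99.8 CPM in the chow hearts. Every NIA heart was below every chow heart, while the other diets overlapped chow. Groups without overlap were found for 3.23% of all tested genes in NIA against chow. The NIA minus chow log2 fold change of Col6a2 was −0.50 ± 0.24 (SE; 95% interval −1.002 to 0.005; unadjusted p = 0.052, edgeR adjusted p = 0.572). Without NIA replicate 4 it was −0.31. UW minus NIA gave 0.54 ± 0.24, with an unadjusted p of 0.0379 and an edgeR adjusted p of 0.323, and 0.12 when NIA replicate 4 and UW replicate 1 were both left out.

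Col6a3 encodes the long α3 chain, whose C-terminal fragment is known as endotrophin. It had 43.5, 41.7, 40.9 and 47.8 CPM in the mNIA hearts, 57.1, 38.5, 30.4 and 55.2 CPM in the UW hearts, 39.8, 41.1, 42.5 and 12.8 CPM in the NIA hearts and 45.7, 51.9, 53.2 and 42.6 CPM in the chow hearts. The NIA hearts were again all below the chow hearts, by less than 0.1 CPM at the nearest pair. Its NIA minus chow log2 fold change was −0.46 ± 0.27 (SE; edgeR adjusted p = 0.636), and −0.23 without NIA replicate 4. Against chow, mNIA gave −0.15 ± 0.27 and UW −0.09 ± 0.27.

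Network-forming Col8a1 had its lowest mean with mNIA, and the other 7 tested members had theirs with NIA. It had 25.1, 23.4, 26.5 and 23.5 CPM in the mNIA hearts, 42.3, 27.1, 24.7 and 38.0 CPM in the UW hearts, 40.3, 30.7, 30.1 and 22.05 CPM in the NIA hearts and 28.9, 28.1, 23.9 and 27.4 CPM in the chow hearts. The mNIA hearts were tightly grouped and overlapped each other diet at its low end. Its means were 24.6 ± 1.5 CPM with mNIA, 33.0 ± 8.5 CPM with UW, 30.8 ± 7.5 CPM with NIA and 27.1 ± 2.2 CPM with chow. The mNIA minus UW log2 fold change was −0.43 ± 0.20 (SE; 95% interval −0.85 to −0.01; unadjusted p = 0.0457, edgeR adjusted p = 1), and −0.28 without UW replicate 1. Against NIA, mNIA gave −0.33 ± 0.20. It was the member with the highest NIA minus chow estimate, at 0.19 ± 0.20.

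Among the fibril-associated collagens, Col14a1 encodes a collagen that limits the lateral growth of fibrils in mouse tendon. It had 11.9, 9.51, 9.52 and 13.3 CPM in the mNIA hearts, 28.4, 13.4, 8.18 and 14.8 CPM in the UW hearts, 7.55, 10.7, 13.9 and 4.98 CPM in the NIA hearts and 13.7, 10.6, 9.81 and 9.63 CPM in the chow hearts. One UW heart was above all 15 others, and the other 3 lay within the range of the remaining diets or just above it. UW minus NIA was 0.72 ± 0.32 on the log2 scale (SE; 95% interval 0.04 to 1.39; unadjusted p = 0.038, edgeR adjusted p = 0.323). UW minus chow was 0.58 ± 0.32, and 0.16 without UW replicate 1. That replicate also carried the highest summed CPM of the 14 fibroblast markers, at 2951, against 1667 to 2338 in the NIA hearts and 1959 to 2283 in the chow hearts. The part of these markers in the result was not tested.

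Col16a1 encodes collagen XVI, a fibril-associated collagen known from skin and cartilage. It had 6.21, 9.51, 8.74 and 9.31 CPM in the mNIA hearts, 14.3, 7.13, 8.76 and 8.31 CPM in the UW hearts, 2.94, 8.71, 13.1 and 2.84 CPM in the NIA hearts and 9.76, 9.79, 16.7 and 13.2 CPM in the chow hearts. Every mNIA heart was below every chow heart, a pattern seen for 2.16% of tested genes, while UW and NIA hearts overlapped chow. The mean of the 3 formulas minus chow was −0.52 ± 0.28 (SE; 95% interval −1.10 to 0.07; unadjusted p = 0.0804, edgeR adjusted p = 0.938), the lowest estimate of any member. The single estimates were −0.54 ± 0.35 for mNIA, −0.35 ± 0.35 for UW and −0.66 ± 0.36 for NIA. These 3 estimates share the same chow hearts, and chow replicate 3, the highest, is 1 of the libraries with a low quality weight. Without it the mean of the 3 formulas gave −0.33, mNIA −0.36 and UW −0.17. UW gave −0.61 without UW replicate 1, and NIA −1.06 without NIA replicate 3 and −0.44 without NIA replicate 1.

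Col12a1, which encodes the stress-associated collagen XII of tendon, muscle and healing tissue, was barely detected, with 0 to 52 counts per library and 139 over all 16. It had 1.13, 1.95, 0.781 and 0.915 CPM in the mNIA hearts, 2.28, 1.02, 1.56 and 1.78 CPM in the UW hearts, 0.839, 0.706, 0.837 and 0 CPM in the NIA hearts and 0.781, 0.803, 0.589 and 0.507 CPM in the chow hearts. The UW hearts lay above all chow and all NIA hearts. Groups did not overlap for 4.45% of tested genes in UW against chow and for 6.35% in UW against NIA. A count of 0 at the depth of NIA replicate 4 allows a level of up to 2.13 CPM, which is within the UW range. With no filter on low counts, UW minus chow was 1.33 for Col12a1 (unadjusted p = 0.00849, edgeR adjusted p = 0.983) and UW minus NIA was 1.29 (adjusted p = 0.265).

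The multiplexin Col15a1 had the lowest coefficient of variation of the members within mNIA and within chow. It had 104, 105, 108 and 111 CPM in the mNIA hearts, 148, 75.0, 70.7 and 113 CPM in the UW hearts, 106, 87.0, 111 and 39.8 CPM in the NIA hearts and 110.1, 111, 116 and 108 CPM in the chow hearts. Its coefficient of variation was 2.79% with mNIA, 35.7% with UW, 37.7% with NIA and 3.19% with chow. The NIA value rests on NIA replicate 4, and was 12.4% without it, while that of UW was 27.2% without UW replicate 1. Its mean was 107 ± 3.0 CPM with mNIA, 102 ± 36 CPM with UW, 85.8 ± 32 CPM with NIA and 111 ± 3.5 CPM with chow. The same pattern, tight with mNIA and chow and wide with UW and NIA, was seen in Col6a1, Col6a2, Col6a3 and Col8a1. Col6a2 had 2.99% with mNIA, 28.5% with UW, 32.3% with NIA and 10.3% with chow. The difference in scatter was not tested, nor was the part of counting error in it, and the comparison without single hearts was added after seeing the data. For Col15a1 against chow, the mean of the 3 formulas gave −0.18 ± 0.22 (SE; edgeR adjusted p = 0.938), and −0.10 without NIA replicate 4.

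Col18a1, the source of endostatin, had 8.18, 13.7, 9.68 and 9.61 CPM in the mNIA hearts, 20.4, 9.37, 9.15 and 12.0 CPM in the UW hearts, 7.13, 10.001, 19.4 and 2.13 CPM in the NIA hearts and 13.1, 10.4, 14.1 and 13.3 CPM in the chow hearts. The widest spread was in the NIA hearts, where the lowest value rests on 3 counts. Its estimates against chow were −0.31 ± 0.37 for mNIA, 0.01 ± 0.36 for UW and −0.26 ± 0.37 for NIA, with edgeR adjusted p-values of 0.983, 0.998 and 0.887. Single hearts moved all of them. For Col18a1, mNIA gave −0.49 without mNIA replicate 2 and UW −0.32 without UW replicate 1. NIA gave −0.77 without NIA replicate 3 and −0.04 without NIA replicate 4.

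At an unadjusted p under 0.05, no tested member passed against chow in any formula, where the background was 1.38% of genes for mNIA, 2.35% for UW, 8.7% for NIA and 2.19% for the mean of the 3 formulas. Between formulas, Col8a1 passed in mNIA against UW, with a background of 0.986%, and none passed in mNIA against NIA, with a background of 8.91%. Col6a2 and Col14a1 passed in UW against NIA, where 13.9% of genes did. When all 4 diets were tested jointly no member passed, against 6.88% of genes. Groups without overlap made up 1.43% of genes in mNIA against UW and 2.35% in mNIA against NIA, with no member among them.

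The median log2 fold change of all tested genes was at most 0.02 from 0 in each comparison. In the mean of the 3 formulas minus chow, 2 of the 8 tested members had positive and 6 negative estimates, with a median of −0.18, while 50.4% of all tested genes had positive estimates. In mNIA minus chow the median was −0.14, with 1 positive and 7 negative estimates, in UW minus chow −0.01 with 4 of each sign, and in NIA minus chow −0.33 with 1 positive and 7 negative. UW minus NIA had the only uniform sign, with 8 positive estimates of 0.10 to 0.72 and a median of 0.30. Those 8 did not hold their sign without NIA replicate 4 and UW replicate 1, when Col6a2 and Col14a1 were at 0.12 and 0.14 and Col6a1 at −0.17, Col15a1 at −0.24 and Col18a1 at −0.30.

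**Figure D2:**
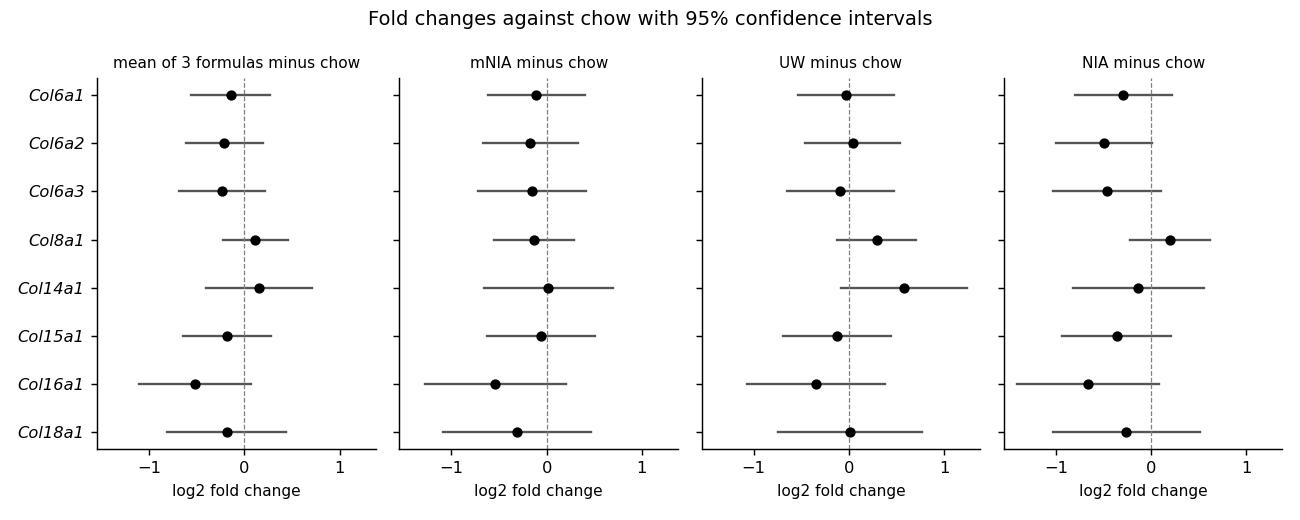
Log2 fold changes (x axis) of the 8 tested collagens (y axis) in the mean of the 3 formulas, mNIA, UW and NIA, each minus chow, from edgeR. Points are estimates and lines 95% confidence intervals; all the intervals include 0, that of Col6a2 in NIA minus chow ending at 0.005.

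Most of the spread lay between single hearts. NIA replicate 4 was lowest for all 8 tested members, with a median of −1.25 on the log2 scale against each gene's mean over 16 libraries, while the median of all genes there was −0.17. UW replicate 1 was above that mean for all 8 and highest for 7, with a median of 0.65. Other collagens moved likewise, so these shifts were not particular to the members. In NIA replicate 4 the medians were −1.48 for fibrillar, −1.65 for basement membrane and −2.67 for other non-fibrillar chains. In UW replicate 1 they were 0.78, 0.44 and 0.55. Summed over the 9 genes, the level was 387 to 402 CPM in the mNIA hearts, 320.5 to 607 CPM in the UW hearts, 167 to 411 CPM in the NIA hearts and 411.5 to 443 CPM in the chow hearts. Most marker lists moved with these 2 libraries. On the same log2 scale, fibroblast markers were at 0.67 in UW replicate 1 and −0.54 in NIA replicate 4, and endothelial markers at 0.55 in UW replicate 1 and −0.87 in NIA replicate 4. Macrophage markers were at 0.90 in UW replicate 1 and −0.13 in NIA replicate 4, and epicardial and valve markers at 1.00 in UW replicate 1 and −0.65 in NIA replicate 4. Pericyte and smooth muscle markers were at 0.15 in UW replicate 1 and −0.78 in NIA replicate 4, and Schwann cell and neuron markers at 0.39 in UW replicate 1 and −0.96 in NIA replicate 4. Cardiomyocyte markers were at −0.47 in UW replicate 1 and 0.56 in NIA replicate 4. Erythrocyte markers were above 0 in both, at 0.24 and 0.46. Summed CPM in NIA replicate 4 was 3139 for endothelial markers (NIA hearts 2382 to 3908) and 1910 for fibroblast markers (1667 to 2338). It was 429 for macrophage markers (209 to 474) and 3161 for pericyte and smooth muscle markers (2327 to 3853). That heart had the lowest NIA sum for epicardial and valve markers, at 35.6 CPM, and for Schwann cell and neuron markers, at 91.0 CPM. The sum of 91.0 CPM was within the range of each other diet, 53.7 to 93.7 with mNIA, 61.3 to 95.4 with UW and 66.6 to 132 with chow. The part of these markers, or of the shortfall of long transcripts in NIA replicate 4, in the collagen values was not tested.

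**Figure D3:**
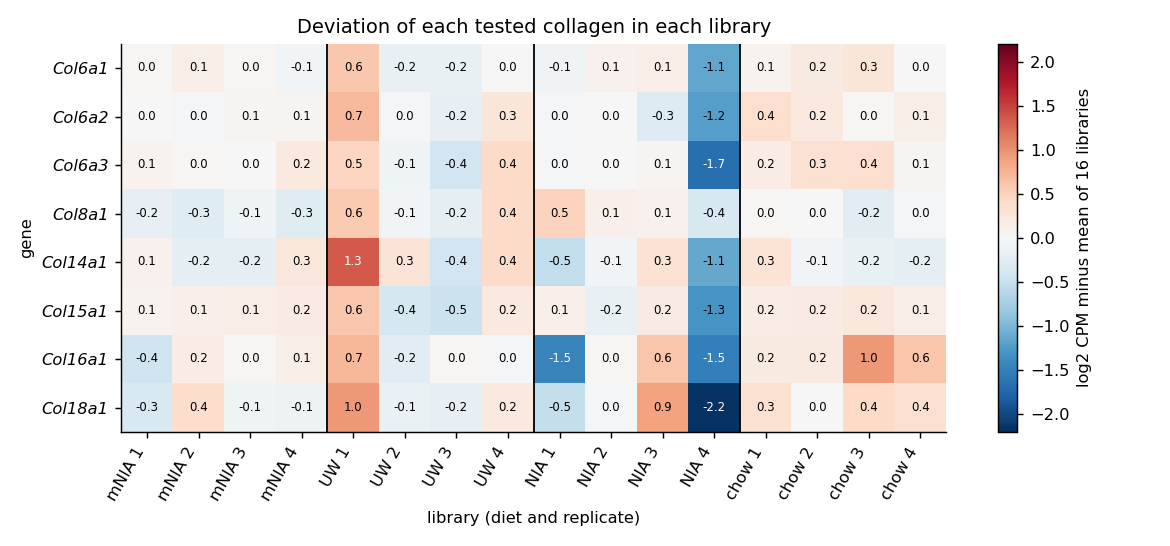
Log2 CPM of each tested collagen (rows) in each library (columns, grouped as mNIA, UW, NIA and chow) minus its mean over 16 libraries. The column of NIA replicate 4 is the lowest throughout, down to −2.17 in Col18a1, and that of UW replicate 1 is above the mean throughout.

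The 8 tested members were set against each other in 28 pairs, as log2 CPM with each diet's mean taken off, over 16 hearts. Pearson's r ran from 0.12 to 0.94 with a median of 0.77, and in 12 pairs both r and Spearman's rho had adjusted permutation p-values under 0.05. The share of such pairs among all tested genes was not taken, so the count cannot be called particular to these collagens. Without NIA replicate 4 and UW replicate 1 the median r was 0.37, so much of the joint movement rested on those libraries. Col6a1 and Col6a2, partners in 1 molecule, had r = 0.88 and rho = 0.71 (permutation p = 0.034 and 0.0397, adjusted 0.0529 and 0.0695), and r = −0.06 without those libraries.

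The pairs with the highest r once NIA replicate 4 and UW replicate 1 were left out were Col6a3 and Col15a1, Col16a1 and Col18a1, and Col6a2 and Col8a1. Col6a3 and Col15a1 had r = 0.94 and rho = 0.94 (permutation p = 7e-04 and 0.00147, adjusted 0.00875 and 0.0174), with r = 0.82 without those libraries and 0.78 without the pair of hearts farthest from the median of Col6a3. Col16a1 and Col18a1 had r = 0.84 and rho = 0.81 (permutation p = 0.00125 and 0.00216, adjusted 0.00875 and 0.0174), with r = 0.82 without those libraries and 0.75 without the hearts farthest from the median of Col16a1. For Col6a2 and Col8a1, r was 0.88 and rho 0.80 (permutation p = 0.00028 and 0.00585, adjusted 0.00784 and 0.0205), and r was 0.79 without those libraries, which are also the hearts farthest from the median of Col6a2. Over all 16 hearts r was higher in several other pairs, such as Col6a1 and Col15a1 at 0.92, which had 0.38 without those libraries.

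The genes closest to each member over the 16 hearts, by the same within-diet Pearson r and with no test, included other matrix genes. Col6a2 was closest to Pdgfra, the fibroblast receptor for platelet-derived growth factor, at 0.97, and to the collagen I chain gene Col1a2, also at 0.97. Col18a1 was closest to Lama4, a laminin chain of vessel basement membranes, at 0.96, followed by Lrrc32, also at 0.96. Nearest to Col15a1 were Tlr3 at 0.95 and Col6a3 at 0.94, and nearest to Col6a1 were Crispld2 at 0.97 and Soga1 at 0.96. Pcdhb22 and Spata13 led for Col6a3, Spred2 and Tlr3 for Col8a1, Mbtps1 and Pcsk6 for Col14a1, and H2-Q5 and Map3k12 for Col16a1, between 0.85 and 0.96. Without NIA replicate 4 and UW replicate 1 these values were lower for most genes: 0.82 for Pdgfra and 0.78 for Col1a2 with Col6a2, 0.84 for Lama4 and 0.91 for Lrrc32 with Col18a1, 0.81 for Tlr3 and 0.82 for Col6a3 with Col15a1, and 0.87 for Crispld2 and 0.66 for Soga1 with Col6a1. The lowest was 0.60, for Pcsk6 with Col14a1, and H2-Q5 with Col16a1 was at 0.96 or above either way.

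Levels between genes were compared per transcript length, as TPM (transcript abundance scaled to a fixed total). Of 41 collagen chain genes in the table, Col4a1, Col4a2, Col3a1 and Col1a2 had the highest median TPM. Col6a1 followed at 53.0 TPM, then Col6a2 at 45.2 and Col15a1 at 44.5 TPM, just above the collagen I chain gene Col1a1 at 44.4 TPM. Col8a1 had a median of 11.7 TPM, Col6a3 of 9.24, Col18a1 of 4.14, Col16a1 of 3.88 and Col14a1 of 3.66 TPM. Col12a1 was at 0.153 TPM, rank 34.

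Col6a1 exceeded Col6a2 in 15 of 16 hearts, while Col6a2 exceeded Col15a1 in 9, so those neighbours did not separate. Col15a1 was above Col8a1 in all 16 hearts and Col8a1 above Col6a3 in 14. Col6a3 was above Col18a1 in all 16. Col18a1 exceeded Col16a1 in 10 and Col16a1 exceeded Col14a1 in 8, so the order among those 3 was not fixed. Col14a1 was above Col12a1 in all 16 hearts.

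**Figure D4:**
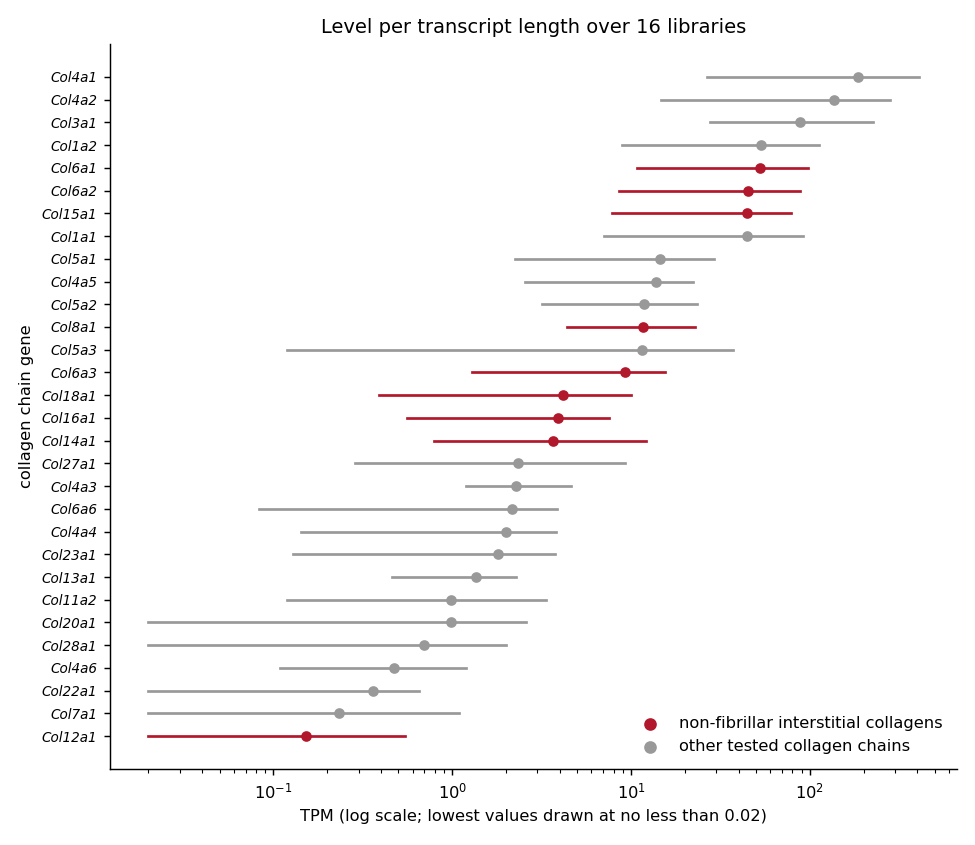
Level per transcript length (TPM, log axis) of the tested collagen chain genes and Col12a1 over 16 libraries. Points are medians and lines run from the lowest to the highest library, with values near 0 drawn at the left end; Col6a1, Col6a2 and Col15a1 lie beside Col1a2 and Col1a1, and Col12a1 is lowest of those drawn.

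Ratios of TPM between chains were also taken in each heart. Col6a1 per Col6a2 had a median of 1.19 over 16 hearts, with means of 1.21 ± 0.10 with mNIA, 1.11 ± 0.08 with UW, 1.33 ± 0.19 with NIA and 1.17 ± 0.19 with chow. Col6a3 was the scarcer chain, at a median of 0.178 per Col6a1. That ratio was 0.180 ± 0.022 with mNIA, 0.179 ± 0.038 with UW, 0.156 ± 0.025 with NIA and 0.185 ± 0.005 with chow. The NIA mean includes NIA replicate 4 at 0.120, while the other NIA hearts were at 0.178, 0.162 and 0.163. Long transcripts were low in that library, and the Col6a3 transcript has 10106 bases against 4100 for Col6a1. They were relatively high in UW replicate 4 (rho with length 0.51) and mNIA replicate 4 (0.37), where the ratio was 0.231 and 0.211. UW replicate 1, with a rho of 0.21, had a ratio of 0.159. The part of these length trends in the level of the ratio and in its spread was not tested, nor were the differences between diets. Col15a1 per Col18a1 had a median of 9.26 and ranged from 6.17 to 20.2, both in NIA hearts. The value of 20.2 is that of NIA replicate 4 and rests on 3 counts of Col18a1 and 56 of Col15a1. By diet the ratio was 11.6 ± 2.3 with mNIA, 8.77 ± 1.0 with UW, 13.0 ± 6.3 with NIA and 9.57 ± 1.3 with chow. The NIA mean includes that value.

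**Figure D5:**
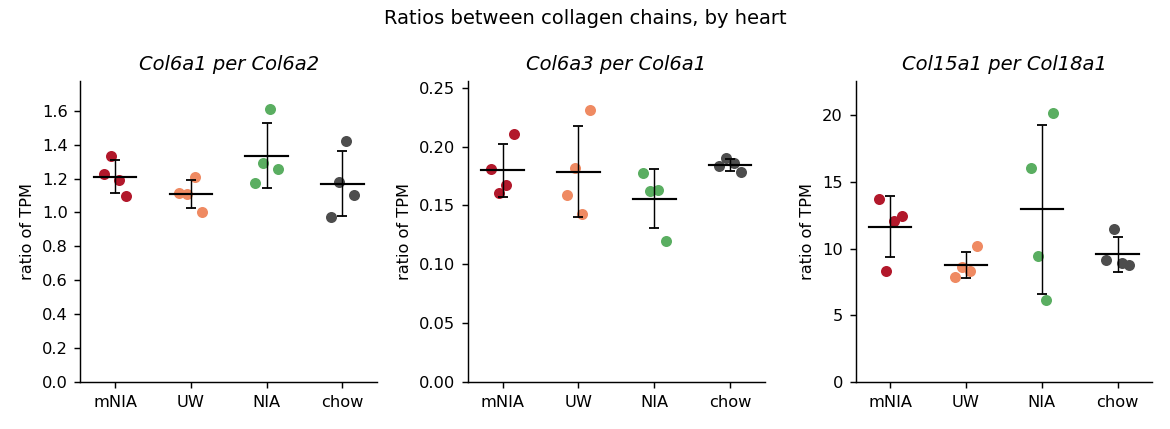
Ratio of TPM (y axis) between collagen chains in each heart for Col6a1 per Col6a2, Col6a3 per Col6a1 and Col15a1 per Col18a1, by diet. Points are hearts and bars the mean ± SD of 4. All diets overlap for the first and last ratio. For Col6a3 per Col6a1 only NIA and chow do not, with NIA up to 0.1776, on 95 counts of Col6a3 in NIA replicate 1, and chow from 0.1781. The share of such gaps among ratios of other genes was not taken, so nothing is read from it. The widest spread is that of Col15a1 per Col18a1 with NIA, at 6.17 to 20.2, the latter in NIA replicate 4 on 3 counts of Col18a1.

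Genes that build, process or bind collagens gave no call in any comparison either. Of 11 fibrillar collagen genes 8 were tested, and all 8 estimates of the mean of the 3 formulas minus chow were negative, with a median of −0.25. Col27a1, a fibrillar collagen of cartilage, had the smallest p there, with 8.01 ± 4.42 CPM with mNIA, 7.32 ± 1.62 CPM with UW, 7.85 ± 5.95 CPM with NIA and 14.5 ± 10.4 CPM with chow (−0.84 ± 0.37, edgeR adjusted p = 0.938). Its chow hearts ran from 7.81 to 30.0 CPM. All 7 basement membrane chains tested were also negative, with a median of −0.23, and so were 5 of 6 other non-fibrillar chains, with a median of −0.29. These lists share the same hearts, and all were low in NIA replicate 4, at −1.48, −1.65 and −2.67. Chow replicate 3, of low quality weight, was the highest chow heart for fibrillar (0.40) and basement membrane chains (0.63), though not for the other non-fibrillar chains. The part of single hearts in these signs was not tested. Marker lists of other cells were uneven in the same comparison: 12 of 14 endothelial markers were negative, with a median of −0.24, 10 of 13 pericyte and smooth muscle markers were negative, with a median of −0.35, and all 12 cardiomyocyte markers were positive, with a median of 0.10. Fibroblast markers were positive in 8 and negative in 6, with a median of 0.02. All 7 erythrocyte markers were negative, with a median of −0.48, the largest of these shifts. Schwann cell and neuron markers were positive in 1 and negative in 5, with a median of −0.19. Macrophage markers were positive in 5 and negative in 6 (median −0.02), and epicardial and valve markers positive in 5 and negative in 3 (median 0.01). The part of these markers in the collagen estimates was not tested.

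Of 23 tested genes for folding, hydroxylation and crosslinking, 11 were positive and 12 negative in that comparison, with a median of −0.06. P3h1, a prolyl 3-hydroxylase of the endoplasmic reticulum, had 13.4 ± 0.9 CPM with mNIA, 13.0 ± 2.7 CPM with UW, 11.002 ± 3.2 CPM with NIA and 16.5 ± 2.4 CPM with chow (−0.38 ± 0.17, edgeR adjusted p = 0.938). Tgm2, the crosslinking transglutaminase, had the smallest joint p of the list at 0.0253 (adjusted 0.637 by edgeR). It had 251 ± 38 CPM with mNIA, 291 ± 28 CPM with UW, 178 ± 41 CPM with NIA and 222 ± 14 CPM with chow. For the 14 tested genes of propeptide processing and turnover, 7 were positive and 7 negative, and the procollagen protease gene Adamts14 gave −0.89 ± 0.37 (edgeR adjusted p = 0.938).

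Collagen receptors numbered 20 tested genes, of which 7 were positive and 13 negative in the mean of the 3 formulas minus chow. Itga1, the α1 subunit of a collagen-binding integrin, had 43.3 ± 5.4 CPM with mNIA, 50.8 ± 15.9 CPM with UW, 25.6 ± 6.6 CPM with NIA and 40.6 ± 10.1 CPM with chow. Its joint test gave the smallest p of that list (unadjusted 0.00995, edgeR adjusted p = 0.523). Of 19 tested matrix partners 4 were positive and 15 negative. Mfap5, a protein of elastic microfibrils, had 12.3 ± 2.6 CPM with mNIA, 21.5 ± 7.4 CPM with UW, 27.9 ± 8.7 CPM with NIA and 21.4 ± 7.0 CPM with chow. In the joint test its edgeR adjusted p was 0.472. Among 22 tested growth factor genes 13 were positive and 9 negative. Ctgf, a matricellular factor that acts with TGF-β, had 46.3 ± 13.2 CPM with mNIA, 86.6 ± 42.2 CPM with UW, 53.4 ± 9.8 CPM with NIA and 43.0 ± 2.6 CPM with chow. In the joint test its edgeR adjusted p was 0.454.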

How the data were processed

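Hearts of 16 mice on 4 diets were sequenced, with 4 animals per diet. The authors deposited expected counts per gene, without scaling, and by library 12.6% to 52.4% of them were fractional. Per the submitters' processing notes, BWA, DESeq2 and mm10 were used. Versions, gene models and strand setting are not given in the sources used here. Values were rounded to whole counts. In edgeR 4.0.16 (R 4.3.3), genes were kept by filterByExpr, which left 13381 of 17737, or 75.4%. Libraries were scaled by TMM, and quasi-likelihood models with robust shrinkage and 1 mean per diet were fitted to all 16 libraries, with 2-sided tests. The common dispersion had a square root of 0.278. The comparisons were 6 pairs of diets, the mean of the 3 formulas minus chow and a joint test. Alternatives included DESeq2 1.42.0, limma 3.58.1, other scalings and filters, a replicate block and leaving out libraries. Log2 CPM used a prior count of 2. TPM used the longest coding transcript of GENCODE vM21. Correlation p-values came from 100000 permutations within diets, 2-sided. The deposited end is 1 base past the RefSeq end for 62.6% of 17416 matched genes, so 1 was taken off. The script for fold changes was tested on simulated data. All 9 members are named, then up to 3 genes of each list with the smallest p, a few of them with values, and for each member the 2 genes most like it. The members and lists were chosen with earlier results of these data known. Intervals cover the spread between animals, and the floor for a count of 0 covers counting error only. Shallow libraries, NIA replicate 4 above all, give the least precise values.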

Additional observations from a re-analysis of the deposited data

Results flagged for a closer look

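In 3 of 52 groups of 4 hearts that were checked, 1 heart lay far from the rest of its diet, and chance flags about 1 group in 20. Col6a3 in NIA replicate 4 was at 12.8 CPM, below 39.8, 41.1 and 42.5 CPM in the other NIA hearts. Col12a1 in NIA replicate 4 was at 0 CPM, with 0.706 to 0.839 CPM in the other NIA hearts. A count of 0 at that depth allows up to 2.13 CPM, so that heart cannot be set below the others. The ratio of Col15a1 to Col18a1 in chow replicate 2 was 11.5, above 8.76 to 9.11 in the other chow hearts.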

How the results depend on the processing

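No member was called in any of 27 alternative fits. For scaling and filters these were RLE and upper-quartile scaling, every gene kept, and genes kept at above 1 CPM in 4 or more libraries. Others used the replicate block, or each library's slope on transcript length as a covariate, taken from each gene's deviation from its median over libraries. The rest were each pair of diets fitted alone, each library left out, sets of libraries left out, DESeq2 and limma. DESeq2 gave no adjusted p for the members in mNIA against NIA. The smallest adjusted p was 0.0677, for Col12a1 in UW minus NIA without the 4 libraries of low quality weight. NIA replicates 1 and 4 are among those libraries, so the NIA mean there rests on NIA replicates 2 and 3 alone. Of 56 fold changes, 25 took the other sign in at least 1 alternative, in 83 of 1504 values, the largest of them at 0.37 in size to begin with. The removal of NIA replicate 4 and UW replicate 1 together was chosen after seeing the data. Replicate numbers did not pair the hearts: 24 same-numbered pairs correlated between −0.58 and 0.61, 9 of them over 0.1, and 4 of 16 hearts correlated best with their own number. With the replicate block, 0 members and 0 genes were called in each of the 8 comparisons. Counts over all genes moved more. Without NIA replicate 2, edgeR called 116 genes in NIA minus chow, 217 in UW minus NIA and 110 in the joint test. Without the 4 libraries of low quality weight, and so with NIA replicates 2 and 3 alone for that diet, it called 224, 1627 and 1374. In mNIA minus NIA it called 3184 there. DESeq2 called 114, 327 and 174, and limma 31, 954 and 2007, with 2001 in mNIA minus NIA; the cause was not tested.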
